A study of Sus scrofa with 8 samples.

Results

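The expression of 10 genes of the blood vessel lining was followed in the jejunum of suckling and newly weaned piglets: the 6 endothelial markers CDH5, CLDN5, PECAM1, ENG, KDR and VWF, and the 4 leukocyte adhesion molecules ICAM1, VCAM1, SELE and SELP. Each gene was read from the probe whose RefSeq accession maps to its symbol. Where a gene had several such probes, the 1 with the highest mean log2 processed signal over the 8 arrays was taken. A probe was found for 10 of the 10 genes, among 3216 symbols named on the array, and the 10 genes have 15 probes in all.

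The 8 arrays held jejunal RNA of 8 Duroc × Landrace piglets from 4 litters, each killed at 25 days of age, with 1 piglet per array and 4 piglets per group. Suckling piglets stayed with the sow. Weaned piglets were separated from her at 21 days, kept in nursery pens with littermates on a diet of 20.50% crude protein (digestible energy 14.48 MJ/kg), and so sampled 4 days after weaning. Each sample was a 2 cm piece of the middle jejunum, so vessels were measured together with epithelium, muscle, stroma and immune cells. In such a sample, fewer endothelial cells and less RNA per endothelial cell cannot be told apart.

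Endothelial cells line every vessel of the gut wall, from the villus capillaries that carry off absorbed nutrients to the venules through which white cells enter the tissue. CDH5 and CLDN5 seal the contacts between these cells, PECAM1 sits at the same contacts, and KDR and ENG receive growth signals of the VEGF and TGF-beta families. VWF is the clotting protein that endothelium stores together with P-selectin, the product of SELP. The selectins SELE and SELP let white cells roll along the wall, and ICAM1 and VCAM1 then hold them through integrins. SELE, ICAM1 and VCAM1 are classic targets of NF-kB, the transcription factor that TNF and interleukin-1 activate in endothelium.

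The values below are log2 processed signals minus the 75th percentile of the same array, so 0 marks that percentile and a gene is compared only with itself. The percentile was 245 intensity units on suckling array 1 and 316.7 to 395 on the other 7 arrays, and between 67.6% and 71.0% of probes per array were well above background. Suckling array 1 stood apart from its group in this respect. The differences of the 10 genes and the median of the epithelial list are therefore given without it as well. The 4 suckling arrays lay on 1 slide and the 4 weaned arrays on the other, so slide cannot be told apart from group. Same-numbered arrays of both groups lay at the same position on their slides, so replicate number and position cannot be told apart. The litter of each single piglet is unknown here, so litter was left out of the model and littermates were treated as independent. The number of arrays limits the precision. The tissue label was checked on epithelial markers, 6 of 6 of which were well above background on each array. EPCAM, an adhesion protein of epithelium, had means of 6.79 ± 0.21 (suckling) and 6.75 ± 0.21 (weaned; log2, SD, n = 4 per group). The chosen probes of 9 of the 10 vascular genes were well above background on 8 of 8 arrays. SELE was well above background on 5 arrays.

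None of the 10 genes passed the test between weaned and suckling piglets: 0 of 10 had a limma adjusted p under 0.05, beside 0.177% of 30554 tested probes (0.173% with the higher mean in weaned piglets, 0.00327% with the lower), and the adjusted p-values ran from 0.346 to 0.998. The means nevertheless leaned 1 way among the endothelial markers. Of these 6, 5 had a lower mean in weaned piglets, with log2 differences from -0.47 to -0.33, and ENG had a higher mean. Among the adhesion molecules SELP had a lower mean, ICAM1 and VCAM1 had nearly equal means, and SELE had a higher mean. Over all 10 genes 8 means were lower, 2 of them by 0.01 or less, beside 45.1% of all tested probes. The median log2 difference of the 10 genes was -0.34, beside 0.04 over all tested probes. An unadjusted limma p under 0.05 was found for 4 of the 10 genes, with the lower mean in weaned piglets each time, beside 12.3% of all tested probes in either direction and 4.58% in that one. Among the 2813 tested genes with a symbol, 0.0711% passed, 7.54% had groups without overlap and 42.5% had a lower mean in weaned piglets. The count of 4 was 0 without suckling array 2, without suckling array 3, without weaned array 1 and without weaned array 2. It was 2 without suckling array 4, weaned array 3 or weaned array 4, and 3 without suckling array 1.

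**Figure D1:**
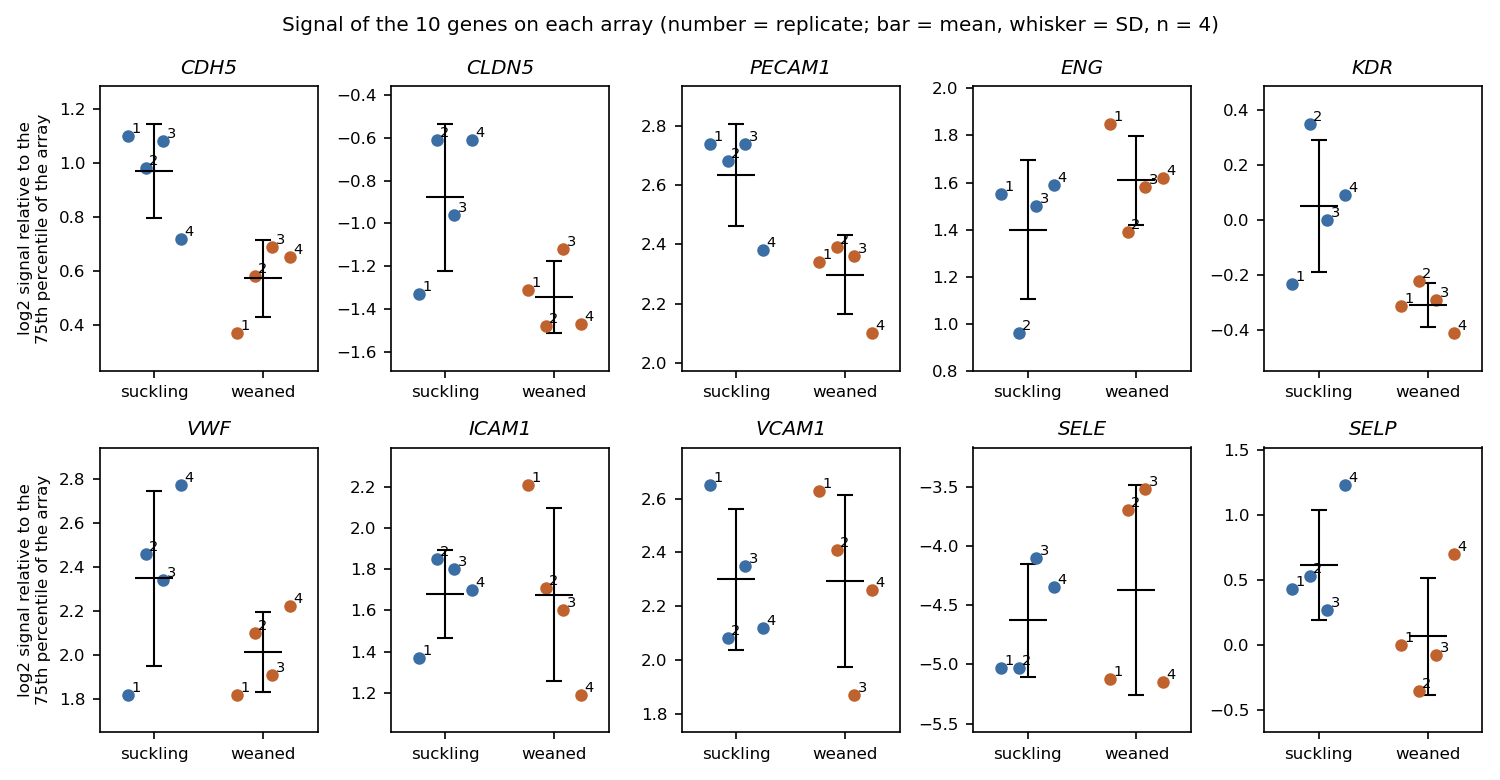
Log2 signal relative to the 75th percentile of the array (vertical axis, own range per panel) for the 10 genes in 4 suckling and 4 weaned piglets; numbers mark replicates, bars the mean and whiskers the SD. CDH5 was the single gene of the 10 without overlap between the groups, and SELE lay far below the percentile on every array.

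CDH5, the cadherin that holds endothelial cells together, had 1.10, 0.98, 1.08 and 0.72 on suckling arrays 1 to 4 and 0.37, 0.58, 0.69 and 0.65 on weaned arrays 1 to 4. The lowest suckling value, on array 4, lay just above the highest weaned value, so the groups did not overlap. No overlap was seen for 1 of the 10 genes, beside 7.76% of all tested probes in either direction and 2.83% with the lower values in weaned piglets. The mean of CDH5 was 0.97 ± 0.17 in suckling and 0.57 ± 0.14 in weaned piglets (SD, n = 4 per group), which is 1.32-fold higher in suckling piglets. The log2 difference was -0.40 (SE 0.15, 95% interval -0.74 to -0.06, limma adjusted p = 0.346). Without suckling array 1 it was smaller, at -0.35 (limma adjusted p = 0.222). The other CDH5 probe had a difference of -0.18 (95% interval -0.54 to 0.18), in the same direction, with overlapping groups.

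CLDN5, the claudin of endothelial tight junctions, had -1.33, -0.61, -0.96 and -0.61 on suckling arrays 1 to 4 and -1.31, -1.48, -1.12 and -1.47 on weaned arrays 1 to 4. The overlap came from suckling array 1 alone: the other 3 suckling values lay above all weaned values. The difference was -0.47 (SE 0.20, 95% interval -0.91 to -0.02, limma adjusted p = 0.384). Without suckling array 1 it was -0.62, with a limma adjusted p of 0.0865, the lowest adjusted p of any of the 10 genes under any alternative run.

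PECAM1, an adhesion protein at endothelial contacts that platelets and white cells also carry, had 2.74, 2.68, 2.74 and 2.38 on suckling arrays 1 to 4 and 2.34, 2.39, 2.36 and 2.10 on weaned arrays 1 to 4. Array 4 was the lowest of each group, and suckling array 4 and weaned array 2 were where the groups met. The difference was -0.34 (SE 0.15, 95% interval -0.67 to 0.00, limma adjusted p = 0.403). Without suckling array 1 it was smaller, at -0.30 (limma adjusted p = 0.286). The 2 other PECAM1 probes had differences of -0.16 and -0.24, so 3 of 3 PECAM1 probes had a lower mean in weaned piglets and none of them passed (limma adjusted p = 0.403 to 0.676).

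KDR, the main signalling receptor for VEGF on endothelium, had -0.23, 0.35, 0.00 and 0.09 on suckling arrays 1 to 4 and -0.31, -0.22, -0.29 and -0.41 on weaned arrays 1 to 4. Its weaned values were close together (SD 0.08), and again suckling array 1 alone reached into their range. The difference was -0.36 (SE 0.16, 95% interval -0.71 to 0.00, limma adjusted p = 0.401), and -0.45 without suckling array 1 (limma adjusted p = 0.124). Under both normexp background corrections it shrank to -0.11 and -0.13 (limma adjusted p = 0.682 and 0.684). These corrections add an offset of 50 before the log, which by itself narrows differences of dim probes. The share of the offset in this change was not separated.

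ENG, the co-receptor endoglin, had 1.55, 0.96, 1.5 and 1.59 on suckling arrays 1 to 4 and 1.85, 1.39, 1.58 and 1.62 on weaned arrays 1 to 4. Suckling array 2 lay well below the other arrays, and the groups overlapped. The difference was 0.21 (95% interval -0.21 to 0.63, limma adjusted p = 0.688), the 1 endothelial marker of the 6 with a higher mean in weaned piglets. Without suckling array 2 it was 0.06, and without suckling array 1 it was 0.26.

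VWF and SELP, whose proteins share a storage granule in endothelium, had their highest value of each group on the same arrays. VWF had 1.82, 2.46, 2.34 and 2.77 on suckling arrays 1 to 4 and 1.82, 2.10, 1.91 and 2.22 on weaned arrays 1 to 4. SELP had 0.43, 0.53, 0.27 and 1.23 on suckling arrays 1 to 4 and 0.00, -0.36, -0.08 and 0.70 on weaned arrays 1 to 4. For both genes array 4 was the highest of each group, and for both the groups overlapped. The lowest value was on array 1 of each group for VWF, but on suckling array 3 and weaned array 2 for SELP. Array 4 lay at the same slide position in both groups, and whether VWF and SELP vary together was not tested.

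The VWF difference was -0.33 (SE 0.21, 95% interval -0.82 to 0.15, limma adjusted p = 0.562), and -0.51 without suckling array 1 (limma adjusted p = 0.136), -0.19 without suckling array 4. A second VWF probe pointed the other way, at 0.63 (95% interval 0.00 to 1.26, limma adjusted p = 0.407). It was well above background on 1 suckling and 4 weaned arrays. It entered the test through the weaned arrays, where it was higher, so its difference is given as a description and carries no weight against the first probe. With the mean of both probes the VWF difference was 0.15. The SELP difference was the largest of the 10 at -0.55, 1.46-fold higher in suckling piglets, but the replicates spread widely (SD 0.43 and 0.45; 95% interval -1.18 to 0.09, limma adjusted p = 0.470). It was -0.34 without suckling array 4 and -0.61 without suckling array 1.

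**Figure D2:**
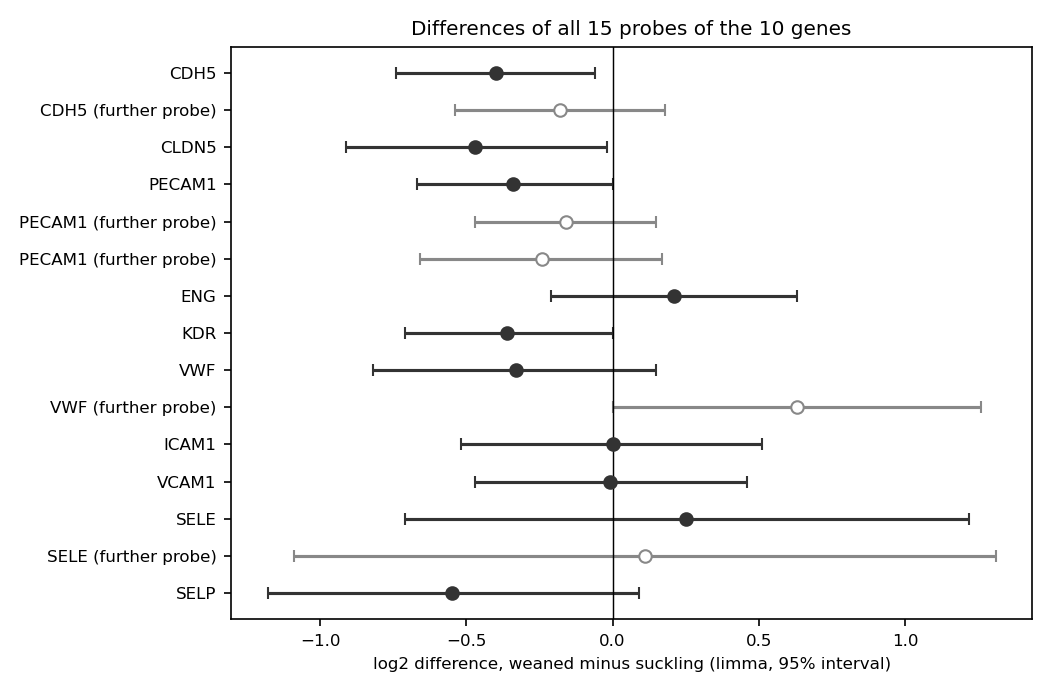
Log2 difference, weaned minus suckling, for the 15 probes of the 10 genes (points, filled for the chosen probe and open for further probes) with 95% intervals from limma. Of 5 further probes, 4 had the sign of the chosen probe, and the second VWF probe, at 0.63 against -0.33, did not.

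ICAM1 and VCAM1, which bind leukocyte integrins for firm arrest, had nearly the same mean in both groups. ICAM1 had 1.37, 1.85, 1.80 and 1.70 on suckling arrays 1 to 4 and 2.21, 1.71, 1.60 and 1.19 on weaned arrays 1 to 4. The highest and the lowest of the 8 values were both weaned, so the weaned group enclosed the suckling one. The means were 1.68 ± 0.22 and 1.68 ± 0.42 (SD, n = 4 per group), with a 95% interval of the difference from -0.52 to 0.51 (limma adjusted p = 0.998).

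VCAM1 had 2.65, 2.08, 2.35 and 2.12 on suckling arrays 1 to 4 and 2.63, 2.41, 1.87 and 2.26 on weaned arrays 1 to 4. Array 1 was the highest of each group. The difference was -0.01 (95% interval -0.47 to 0.46, limma adjusted p = 0.991). For both genes the interval leaves room for a shift as large as that of CDH5 in either direction, so these arrays do not show that ICAM1 and VCAM1 were equal. The sign of either difference turned when single arrays were left out, with ranges of -0.18 to 0.16 for ICAM1 and -0.12 to 0.13 for VCAM1. Without suckling array 1 the differences were -0.11 for ICAM1 and 0.11 for VCAM1.

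SELE, the selectin made by activated endothelium, was the 1 gene of the 10 near background. It had -5.03, -5.03, -4.10 and -4.35 on suckling arrays 1 to 4 and -5.12, -3.70, -3.52 and -5.15 on weaned arrays 1 to 4. It was not well above background on suckling array 1 and on weaned arrays 1 and 4. Weaned arrays 2 and 3 held the highest values, and the other weaned arrays held the lowest. The difference was 0.25 with a 95% interval from -0.71 to 1.22 (limma adjusted p = 0.844), the widest interval among the 10 chosen probes. Without suckling array 1 it was 0.12. The second SELE probe gave 0.11 and was likewise highest on weaned array 3 and well above background on 5 arrays.

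**Figure D3:**
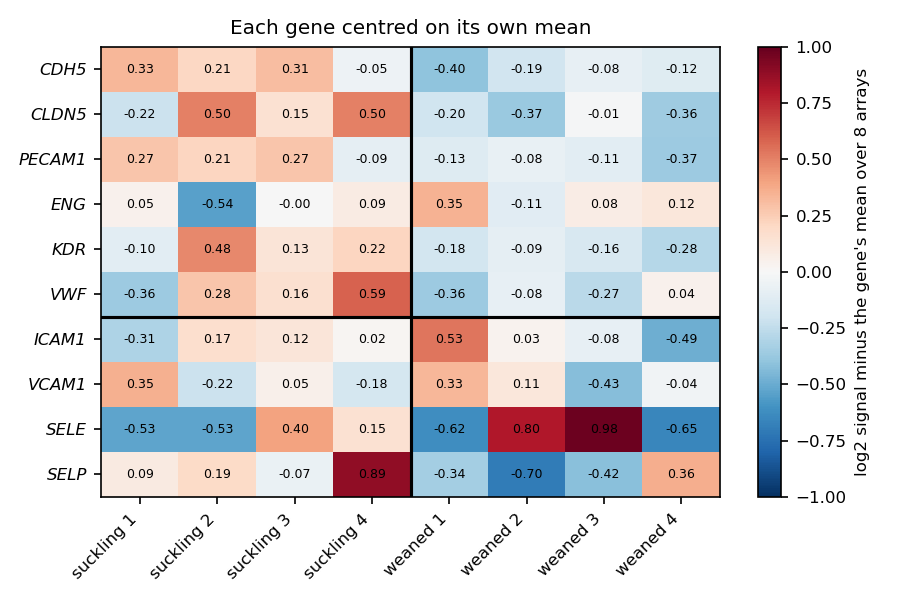
Log2 signal of each gene minus its own mean over the 8 arrays (colour and printed number), with suckling arrays on the left and endothelial markers above the line. CDH5, CLDN5, PECAM1 and KDR are below their mean on each weaned array, while the other 6 genes lie on both sides of their mean within the weaned group.

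The arrays did not rank the 10 genes in a common order. Centred on each gene's own mean, the median of the 6 endothelial markers was -0.03 on suckling array 1 and 0.15 to 0.24 on the other suckling arrays, and -0.20 to -0.10 on the weaned arrays. The median of the 4 adhesion molecules was -0.11 to 0.09 on suckling and -0.26 to 0.07 on weaned arrays, with overlap. Within the suckling group, array 1 was the lowest of 4 for 5 of the 10 genes (CLDN5, KDR, VWF, ICAM1 and SELE), yet it was the highest for 3 (CDH5, PECAM1 and VCAM1). Weaned array 4 was the lowest of all 8 arrays for 4 of the 10 genes.

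The closest of the 9 other genes to CDH5 in pattern was PECAM1. Likeness was taken as the mean absolute difference between 2 genes' values over the 8 arrays, each gene first set to mean 0 and SD 1. PECAM1 lay 0.378 SD from CDH5, and 0.179% of 2801 other genes with a symbol lay closer. KDR, CLDN5 and VWF lay 0.828, 0.876 and 0.883 SD away, and ENG was the farthest at 1.31 SD, with 71.7% of genes closer to CDH5 than it was. The 5 genes outside the 10 that lay closest were TTC14 (0.232 SD), ICE2 (0.292), ING3 (0.367), PNN (0.375) and HPS3 (0.376). Their log2 differences ran from -0.45 to -0.22. With 8 arrays in 2 groups such a match mixes the group difference with the pattern within each group. The 2 parts were not separated, and the match is given as a description.

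Of a list of 30 other genes of endothelium, 13 had a probe and were tested, and 0 of 13 passed. Weaned piglets had the higher mean in 7 and the lower in 6, and the median difference was 0.11, but -0.01 under both normexp corrections and 0.02 with the mean over probes or without weaned array 1. No test compared this list with the 6 markers. FLT1, a decoy receptor for VEGF, had -3.95 ± 0.13 and -3.84 ± 0.21 (log2, SD, n = 4 per group, suckling first), a difference of 0.11. CD34, a sialomucin of capillary endothelium, had -0.31 ± 0.16 and -0.10 ± 0.12, a difference of 0.21. NOS3, the endothelial nitric oxide synthase, had -0.05 ± 0.28 and -0.17 ± 0.34, a difference of -0.11. The limma adjusted p of these 3 genes was 0.590 to 0.868. NOTCH4, an endothelial Notch receptor named here after its values were seen, had the one unadjusted limma p under 0.05 in this list, with a difference of -0.34 (limma adjusted p = 0.402). The summed linear signal of the list, in units of the 75th percentile, was 16.7 to 21.1 on suckling and 16.2 to 19 on weaned arrays.

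Of 5 lymphatic endothelial genes 2 were tested, and 0 of 2 passed. PROX1, the transcription factor that sets lymphatic identity, had -1.45 ± 0.25 and -1.83 ± 0.28 (log2, SD, n = 4 per group), a difference of -0.38 (limma adjusted p = 0.461). CCL21, the chemokine of lymphatic endothelium, had a difference of -0.17 (limma adjusted p = 0.810).

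Vascular growth factors had 5 of 12 members tested, of which 0 passed, 4 had a lower and 1 a higher mean, and the median was -0.27. VEGFA, the ligand of KDR, had -0.41, 0.15, -0.50 and -0.08 on suckling arrays 1 to 4 and -0.55, -0.49, -0.73 and -0.45 on weaned arrays 1 to 4. Suckling arrays 1, 2 and 4 were above every weaned array and suckling array 3 was not. The difference was -0.35 (SE 0.18, limma adjusted p = 0.473), and KDR itself had -0.36. ANGPT1, which steadies vessels through the TEK receptor, had -2.49 ± 0.24 and -3.01 ± 0.31 (log2, SD, n = 4 per group), a difference of -0.52 (SE 0.20, limma adjusted p = 0.353). ANGPT2, its antagonist, had a difference of -0.27 (limma adjusted p = 0.666). HIF1A, a subunit of the hypoxia-inducible transcription factor, was the 1 with a higher mean, by 0.04, and is named here after its values were seen.

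A list of leukocyte ligands and other adhesion receptors, not all of them on white cells, had 7 of 16 members tested, of which 0 passed. The median was -0.04. Weaned piglets had the higher mean in 2, ITGB2 and ITGAL, and the lower in 5, beside a lower mean for 45.1% of all tested probes. The 5 include MADCAM1, at 0.00. ITGB2, the integrin chain of the ICAM1 receptors, had 1.47, 0.94, 1.46 and 1.18 on suckling arrays 1 to 4 and 2.25, 2.31, 1.75 and 1.86 on weaned arrays 1 to 4. The groups did not overlap, which 4.93% of tested probes showed with the higher values in weaned piglets. The difference was 0.78 (SE 0.20, 95% interval 0.34 to 1.22, limma adjusted p = 0.196). ITGAL, the chain that pairs with ITGB2 in the ICAM1 receptor of lymphocytes, had a difference of 0.16 (95% interval -0.41 to 0.74). MADCAM1, the addressin by which gut venules recruit lymphocytes, was named after its values were seen. It had 3.26 ± 0.42 and 3.26 ± 0.34 (log2, SD, n = 4 per group), a difference of 0.00 (limma adjusted p = 1). SELPLG, the ligand of P-selectin, was well above background on 1 of 8 arrays and was not tested.

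Among inducers and targets of NF-kB, 11 of 12 tested genes (15 listed) had a higher mean in weaned piglets, the median was 0.30, and 0 of 12 passed. Over all tested probes, 45.1% had a lower mean in weaned piglets. TNF, which switches on adhesion molecules in endothelium, had -0.65, -0.48, -1.12 and -0.65 on suckling arrays 1 to 4 and 0.05, 0.59, 0.26 and -0.11 on weaned arrays 1 to 4. The groups did not overlap, beside 4.93% of tested probes without overlap in that direction. The difference was 0.92 (SE 0.21, 95% interval 0.46 to 1.39, limma adjusted p = 0.151). The difference was 0.52 and 0.63 under the normexp corrections and 0.67 with the mean over probes (limma adjusted p = 0.170 to 0.298). In the log2 values of the authors' deposited table the same fit gave 1.26 and a limma adjusted p of 0.0354. For this probe, which has 1 spot, that table does not follow the scanner intensities on 4 arrays. It lies 0.40 and 0.20 lower on suckling arrays 1 and 4 and 0.30 and 0.50 higher on weaned arrays 1 and 4 than those intensities give after quantile normalisation, which gave 0.91 (limma adjusted p = 0.162). IL1B, interleukin-1 beta, had -1.81 ± 0.73 and -0.49 ± 0.93 (log2, SD, n = 4 per group), a difference of 1.32 with overlapping groups (SE 0.50, limma adjusted p = 0.345). IL1A had a difference of 0.32 (limma adjusted p = 0.549).

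CXCL8, a neutrophil chemokine, and IRF1, a target of interferon and NF-kB, had differences of 0.80 and 0.35 (limma adjusted p = 0.230 and 0.402). Neither overlapped between the groups, beside 4.93% of tested probes without overlap in that direction. NFKBIA, the inhibitor of NF-kB, was the 1 with a lower mean, at -0.14. These 3 were named after their values were seen. Beside them, the NF-kB targets SELE, ICAM1 and VCAM1 had 0.25, 0.00 and -0.01. Whether the 2 sets of differences are unequal was not tested.

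**Figure D4:**
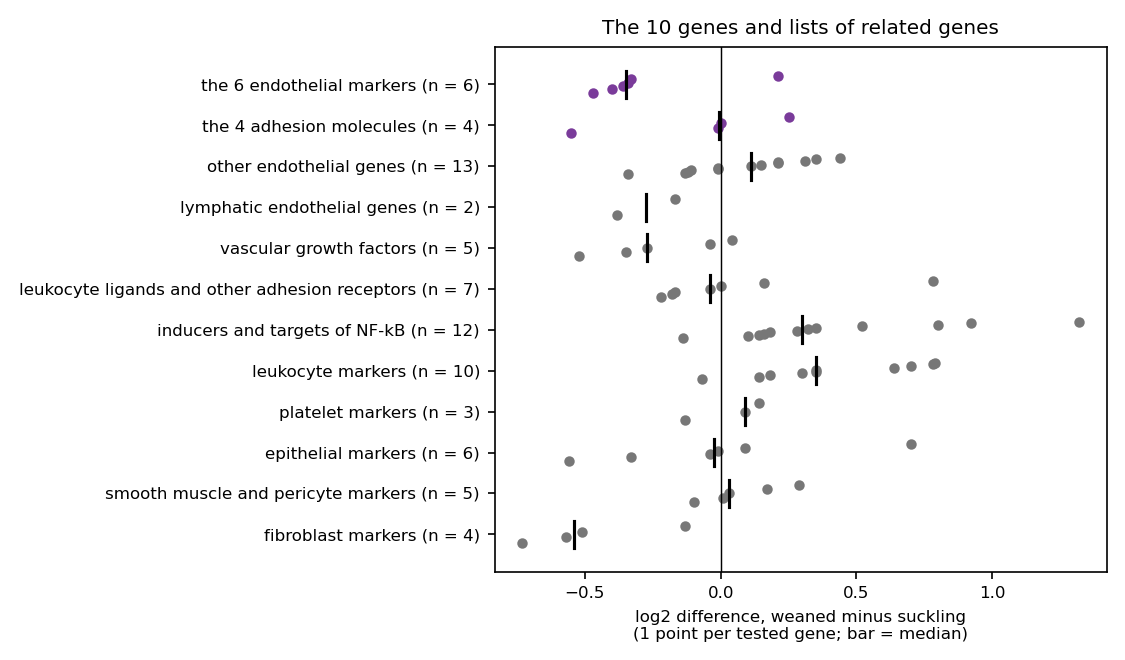
Log2 difference, weaned minus suckling, of each tested gene (points) in the 10 genes and the lists of related genes, with the median of each list as a bar. The 6 endothelial markers have a median of -0.35, other endothelial genes 0.11, and fibroblast markers -0.54.

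Markers of other cell types are given beside these values. Leukocyte markers had 10 of 15 members tested, with a median of 0.35 and 0 past the threshold. Their means were higher in weaned piglets for 9, beside a lower mean for 45.1% of all tested probes. Their summed signal was 11.5 to 24.5 on suckling and 16.6 to 31.0 on weaned arrays. CD3E, CD3D and CD4, proteins of T cells, had differences of 0.18, -0.07 and 0.35 (limma adjusted p = 0.454 to 0.929). FCER1G and CD14, genes of myeloid cells named after their values were seen, had 0.78 and 0.79 (limma adjusted p = 0.265 and 0.357). Differences over the list ran from -0.07 to 0.79, with CD14 the largest. Whether myeloid and T cell genes differ in this was not tested. White cells carry PECAM1 and ICAM1 as well, and the part of these cells in those 2 values was not tested.

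Fibroblast markers had 4 of 9 members tested and 0 passed. The means of 4 of 4 were lower in weaned piglets (45.1% of all tested probes), and their median difference was -0.54. Their summed signal was 69.5 to 106 on suckling and 56.6 to 78.7 on weaned arrays. COL1A2, a collagen chain, had 4.47 ± 0.33 and 3.90 ± 0.44 (log2, SD, n = 4 per group), a difference of -0.57 (limma adjusted p = 0.410). LUM and DCN, matrix proteoglycans, had -0.51 and -0.13 (limma adjusted p = 0.421 and 0.808). POSTN, a matrix protein named after its values were seen, had -0.73 (limma adjusted p = 0.225). Its groups did not overlap, beside 2.83% of tested probes without overlap in that direction. These means lay on the same side as those of 5 of the 6 endothelial markers, and the part of stromal cells in the endothelial values was not tested.

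Smooth muscle and pericyte markers had 5 of 11 members tested, 0 passed, and the median was 0.03, with 4 means higher and 1 lower. Their summed signal was 130 to 280 on suckling and 73.8 to 244 on weaned arrays. ACTA2, DES and CNN1, contractile and filament genes of muscle, had 0.29, 0.01 and -0.10 (limma adjusted p = 0.797 to 0.994). Epithelial markers had 6 of 13 members tested, 0 passed, and the median was -0.03. Weaned piglets had the higher mean in 2 and the lower in 4, and the median was -0.34 without suckling array 1 and 0.15 without suckling array 4. Their summed signal was 664 to 1780 on suckling and 876 to 1300 on weaned arrays, lowest on suckling array 1. EPCAM, CDH1 and KRT8 had differences of -0.04, 0.09 and 0.70 (limma adjusted p = 0.939, 0.906 and 0.218). The other members, the enterocyte genes FABP2, APOA4 and ANPEP, named after their values were seen, had -0.33, -0.56 and -0.01 (limma adjusted p = 0.831, 0.690 and 0.994). Without suckling array 1, FABP2, APOA4 and ANPEP had -0.80, -1.05 and -0.54.

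Platelets carry VWF, SELP and PECAM1, so platelet markers are given as well. Of 8 platelet genes 3 were tested and 0 passed. PPBP, a platelet chemokine, was well above background on 0 suckling and 2 weaned arrays, and TUBB1, the platelet tubulin, on 1 suckling and 0 weaned arrays. ITGA2B and GP9, platelet surface proteins, had differences of 0.14 and 0.09 (limma adjusted p = 0.773 and 0.841). The probe named ITGB3, also 1 of the 3 tested, had 10.03 ± 0.24 and 9.91 ± 0.02 (log2, SD, n = 4 per group), with 0.00459% of probes higher. Its name rests on the RefSeq accession alone, and whether it reports ITGB3 or another transcript was not checked. This probe sets the list's summed signal of 934 to 1350 on suckling and 948 to 987 on weaned arrays.

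**Figure D5:**
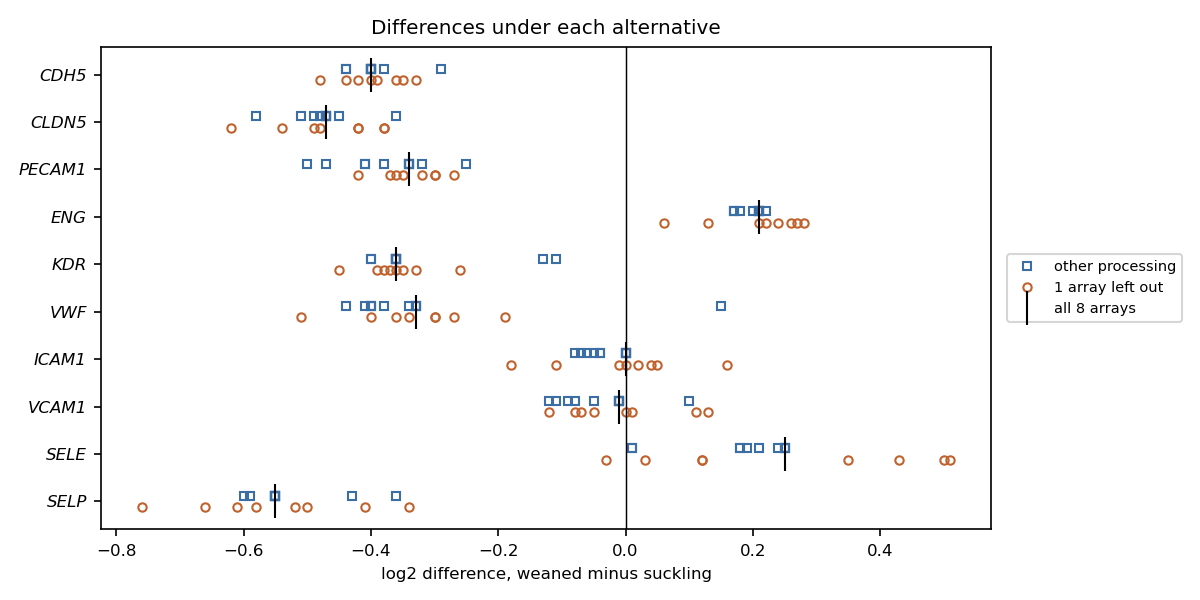
Log2 difference, weaned minus suckling, of each of the 10 genes with all 8 arrays (black bar), with 1 array left out (circles) and under other processing (squares). CDH5, CLDN5, PECAM1, KDR and SELP stay below 0 and ENG stays above 0 at each point, while VWF, ICAM1, VCAM1 and SELE cross 0.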

How the data were processed

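Per the labels, total RNA was labelled with Cy3 and each array held 1 piglet. Per the submitters' processing notes, Agilent Feature Extraction 10.7 was used. Each deposited scanner file holds the processed intensity of every spot; how its background was handled is not given in the sources used here. The authors' deposited table holds log2 values whose 8 column medians are each 5.50; except at 16 probes they follow the quantile-normalised log2 processed intensity. From the intensities, control spots were left out, outlier spots set to missing, spots of a probe averaged, and each array's 75th percentile subtracted on the log2 scale, for 43603 probes. RefSeq accessions were matched without versions to the Sscrofa11.1 gene table, which named 6924 of 8091 such probes. A probe was tested when well above background on at least 4 arrays with at least 3 values per group. The 30554 tested probes entered 1 model with group as the sole term (limma 3.58.1, R 4.3.3; lmFit, eBayes, two-sided, Benjamini-Hochberg over all of them; threshold 0.05). The code was checked on simulated data.

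The 10 genes and the lists of related genes were chosen with earlier results of these data known. From each list the first 3 tested genes in list order are named, plus any past the threshold, and the 5 genes nearest CDH5; others are marked as named after their values were seen. Some results that this rule covers are not reported here. The alternatives were quantile and median scaling, normexp (offset 50, on the median spot intensity), other filters on dim probes, outlier spots kept, a robust prior with an intensity trend, weighting of arrays, a block on replicate number, the authors' table, the mean over a gene's probes and each array left out. A normexp run with the median background at flagged spots was added after seeing the data. In both normexp runs the offset by itself narrows differences of dim probes.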

Additional observations from a re-analysis of the deposited data

Results flagged for a closer look

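In 8 of 110 groups of 4 values 1 array lay far from the other 3, measured as its gap to the nearest value divided by the group's range; chance flags about 1 group in 20. Among the 10 vascular genes this held for ENG, where suckling array 2 was lowest (0.857). The other cases were CD34, with weaned array 2 lowest (0.859), ITGAL, with weaned array 3 lowest (0.946), and the probe named ITGB3, with suckling array 1 highest (0.831), and APOA4, with suckling array 1 lowest (0.856). Muscle genes gave the remaining 3: DES was highest on suckling array 3 (0.864) and lowest on weaned array 2 (0.918), and CNN1 was highest on suckling array 3 (0.847).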

How the results depend on the processing

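Under each of the 20 alternatives 0 of the 10 genes passed, with 6 to 8 of them lower in weaned piglets. The median of the 10 genes was -0.24 under normexp and -0.13 with the mean over a gene's probes, and between -0.38 and -0.27 otherwise. The count of all tested probes past the threshold, 54, was 328 with array weights, 9 to 553 with 1 array left out (553 without suckling array 1) and 0 with the replicate number as a block. Under that block 0 of the 10 genes passed too. CDH5 had -0.40 (limma adjusted p = 0.369), a difference that such a block cannot change. Which piglets were littermates is unknown here, so the numbers were not taken as pairs. Any littermates among the 8 piglets were thus fitted as independent. Across probes, arrays' deviations from their group mean had correlations of 0.368, 0.008, 0.186 and -0.018 between same-numbered arrays 1 to 4. Of 8 arrays, 3 correlated best with their own number. With 4 arrays per group these correlations cannot decide whether same-numbered piglets shared a litter. Same-numbered arrays also lay at the same slide position, so litter and position cannot be told apart in the block or in these correlations. Of 1099 values of single genes under alternatives 1042 kept direction and side of the threshold, and 56 changed sign. The other 1 passed the threshold (TNF in the deposited table, whose values for that probe depart from the scanner's). The cause was not tested. None of these genes passed in the main fit. The block, the prior and the filters on dim probes refit the same values and could not change a difference. Part of the 1042 was thus fixed in advance. Sign changes under other processing were VCAM1 0.10, NOS3 0.05, MADCAM1 0.06, CDH1 -0.05, ACTA2 -0.11 and DES -0.42 with array weights, CDH1 -0.08 and ANPEP 0.06 under both normexp runs, DES -0.04 and ITGB3 0.04 under quantile normalisation and in the deposited log2 table, DES -0.03 under median scaling, and VWF 0.15 and CD3D 0.06 with the mean over probes. With 1 array left out the ranges that crossed 0 were -0.12 to 0.13 for VCAM1, -0.18 to 0.16 for ICAM1, -0.03 to 0.51 for SELE, -0.19 to 0.13 for MADCAM1, -0.12 to 0.20 for CDH1, -0.16 to 0.46 for DES, -0.05 to 0.13 for HIF1A, -0.05 to 0.32 for ITGAL, -0.13 to 0.05 for EPCAM, -0.31 to 0.36 for CNN1, -0.26 to 0.00 for NFKBIA, -0.22 to 0.10 for CD3D, -0.80 to 0.14 for FABP2, -0.54 to 0.36 for ANPEP and -0.36 to 0.04 for CCL21. The median of the NF-kB list was 0.09 and 0.11 under the normexp runs and 0.22 to 0.43 with 1 array left out (1 of its genes, TNF, passed in the deposited table). Other list medians moved by over 1.5 times as well. Vascular growth factors had -0.16 under normexp and -0.14 without suckling array 3, and leukocyte markers had 0.21 under normexp. Lymphatic endothelial genes, at -0.28 in the main fit, had -0.10 without weaned array 4 and -0.09 with the mean over probes. Smooth muscle had 0.36 without weaned array 2 and -0.11 with array weights. Leukocyte ligands ran from -0.14 without weaned array 1 to 0.04 without weaned array 3. Platelet markers, at 0.09, ran from 0.03 without suckling array 2 to 0.15 under the added normexp run. Those of other endothelial genes and epithelial markers moved as given above. SELE, well above background on 5 arrays, was not tested when 8 were required.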

Other observations

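The authors' deposited log2 table was set against quantile-normalised log2 values of the processed intensities. In 99% of values the departure was at most 0.00741, and over the 10 vascular genes it was at most 0.00749. A departure over 0.1, a limit chosen after seeing the data, was found for 16 probes. Of these, 10 have 5 spots each, where the way spots are combined can differ. The other 6 were among 43553 probes with 1 spot, and in 6 of 6 the difference between weaned and suckling piglets was wider in the deposited table. TNF and CXCL8 are 2 of them: the table gives 1.26 and 0.99 where the scanner intensities gave 0.91 and 0.74. For CXCL8 the departure was on suckling array 1 alone, by -1 log2 unit. For TNF it was on suckling arrays 1 and 4 and weaned arrays 1 and 4. How these values arose was not tested, and no result on the 10 vascular genes rests on them.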
